A study of Homo sapiens with 3 samples.

Results

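ATF4, DDIT3, DDIT4, XBP1, TRIB3 and PPP1R15A are 6 genes of the integrated stress response and the unfolded protein response, and their RNA 3′ ends were followed in newly made and total RNA of HEK293T cells, an established human embryonic kidney line. The genes were taken by name, each as the positions on its own strand in a window of hg19 numbering, and all 6 had counts in all 3 libraries. Together they held 23 end sites of at least 20 counts summed over the libraries, a site being the positions within 24 nt of a local maximum. Of these, 9 had a mean of at least 10 CPM (counts scaled to an equal nuclear total in each library) and were among the 10843 nuclear sites that passed this filter, and the highest site of every gene was 1 of the 9.

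Captured RNA from cells given 4-thiouridine (4sU) for 60 min (4sU 60 min) or for 30 min (4sU 30 min) was compared with the uncaptured input RNA, titled as that of the shorter labelling, which mostly reflects RNA already present. 4sU is a nucleoside analogue that cells build into RNA while it is in the medium, so captured RNA is enriched for molecules made during the labelling. The labels name no stress agent, no genotype and no replicate culture, give the 4sU concentration as 1000 mM, a figure whose unit may be wrong, and list no treatment for the input. Each group was 1 library, so no difference has a replicate check and no test was made; all intervals are 95% intervals that cover counting error only, since amplified copies of 1 molecule were not told apart. The libraries held 6151986, 9652023 and 32768468 nuclear counts in the order 4sU 60 min, 4sU 30 min and input, the totals by which CPM are scaled. Mitochondrial counts, left out of these totals, made up 31.1% of all counts at 60 min and 31.8% at 30 min, against 7.46% for the input. In bulk RNA, fewer cells that express a gene and less RNA per cell cannot be told apart. The vimentin gene VIM, which HEK293T cells express, had 586 CPM at 60 min and 674 CPM at 30 min, against 558 CPM for the input, and ZIC2 had 109.9, 239 and 37.9 CPM, while MYCN, also listed as a marker, had at most 7 counts in a library. Markers of other cells (PTPRC, ALB, HBB and COL1A1) stayed under 5 CPM in each library, with HBB the highest at 4.77 CPM in 4sU 30 min.

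In the integrated stress response, kinases phosphorylate the translation factor eIF2, which lowers protein synthesis in general while translation of ATF4 mRNA rises. ATF4, a basic leucine zipper (bZIP) transcription factor, then activates genes of amino acid supply and of feedback. In the unfolded protein response, the endoplasmic reticulum (ER) sensors PERK, IRE1 and ATF6 report misfolded protein; PERK acts through eIF2, and IRE1 splices XBP1 mRNA in the cytoplasm. The assay reads 3′ ends, so spliced and unspliced XBP1 mRNA count alike here.

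The 150 bases upstream of the start of 4 of the genes are printed to show the sequence elements that a motif search found there, since these genes are known for regulation at their promoters. They come from RefSeq promoter windows on GRCh38.p14, all 6 genes matched by symbol, and the first listed start was used where the table gives more than 1. Capitals mark the matches.
XBP1 (chr22:28800570-28800719, minus strand): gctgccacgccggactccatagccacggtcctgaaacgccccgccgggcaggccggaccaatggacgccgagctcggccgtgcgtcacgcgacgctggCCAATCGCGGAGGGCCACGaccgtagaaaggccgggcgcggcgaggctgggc
DDIT3 (chr12:57520515-57520664, minus strand): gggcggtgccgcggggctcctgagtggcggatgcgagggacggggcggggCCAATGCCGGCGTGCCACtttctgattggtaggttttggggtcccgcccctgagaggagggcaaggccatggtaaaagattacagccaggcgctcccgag
PPP1R15A (chr19:48872271-48872420, plus strand): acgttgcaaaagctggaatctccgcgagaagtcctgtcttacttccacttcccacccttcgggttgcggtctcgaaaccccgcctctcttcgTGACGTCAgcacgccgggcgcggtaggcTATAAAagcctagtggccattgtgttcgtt
ATF4 (chr22:39520409-39520558, plus strand): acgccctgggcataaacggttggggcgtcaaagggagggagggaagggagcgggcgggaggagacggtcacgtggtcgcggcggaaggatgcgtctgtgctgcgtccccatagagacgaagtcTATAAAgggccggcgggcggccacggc
The motifs were searched on both strands in windows from 250 bases before to 50 after each start. The ER stress response element (ERSE, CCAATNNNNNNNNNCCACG) was found in XBP1 only among the 6 and in 0.0769% of 35116 windows. The same element without its last base (CCAATNNNNNNNNNCCAC) also matched DDIT3 and was found in 0.316% of windows. PPP1R15A held the cyclic AMP response element (CRE, TGACGTCA), found in 1.85% of windows, and PPP1R15A and ATF4 held a TATA box (TATAAA), found in 11.5%. The C/EBP-ATF response element (CARE, searched as TGATGNAA) was in none of the 6 windows and in 3.62% of all, and the unfolded protein response element (UPRE, TGACGTGG) in none of the 6 and in 0.729% of all.

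The highest site of each gene lay 277 to 415 nt from the downstream end of its window: at position 39918685 on the plus strand of chromosome 22 for ATF4, 57910377 on the minus strand of chromosome 12 for DDIT3, 29190549 on the minus strand of chromosome 22 for XBP1, 74035793 on the plus strand of chromosome 10 for DDIT4, 378201 on the plus strand of chromosome 20 for TRIB3 and 49379314 on the plus strand of chromosome 19 for PPP1R15A. Positions are those of the deposited tables read as hg19; the sources used here name no build and no annotation of hg19 was used here, so no exon or untranslated region was assigned. An end is read once whatever the length of its RNA, so a longer RNA gives no more reads per sequenced molecule. Capture may still differ between genes, which was not tested. Levels of different genes in the captured libraries are therefore compared as read, not as amounts of RNA in the cell.

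All of these genes but ATF4 were several-fold more abundant in newly made RNA than in input. Scaled by nuclear counts, ATF4 was level at 30 min, and under the other scalings it was below the input. The order of abundance also changed: ATF4 was the highest of the 6 in input, and DDIT4 was the highest in both 4sU libraries. The 6 genes together took 0.326% of nuclear counts in 4sU 60 min and 0.511% in 4sU 30 min, against 0.134% in input. DDIT4 made up 52.5% of that sum in 4sU 60 min and 48.4% in 4sU 30 min, against 17.4% in input, and ATF4 13.6% and 13.4%, against 49.95% in input.

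**Figure D1:**
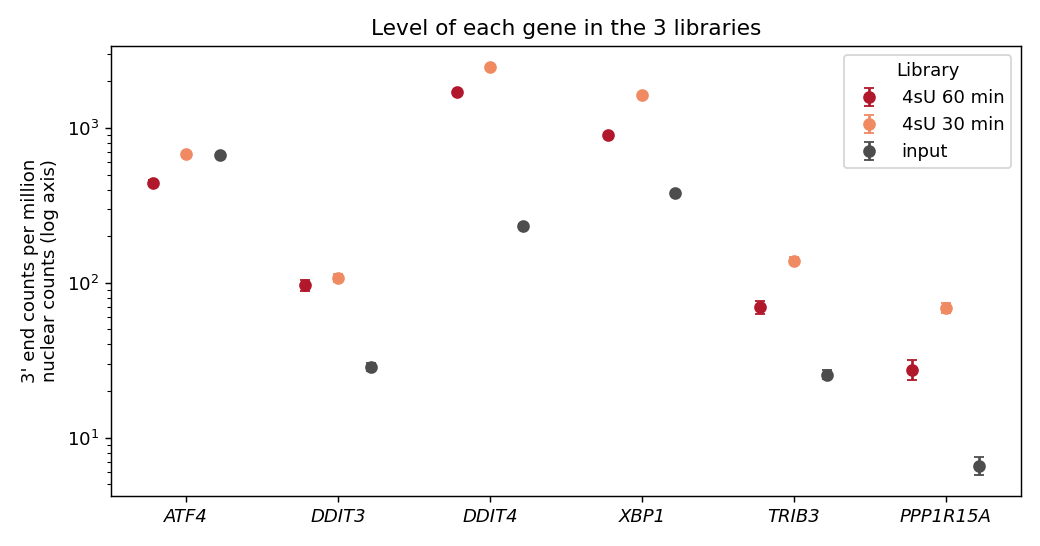
CPM of 3′ ends (log axis) for each gene in 4sU 60 min, 4sU 30 min and input, 1 library each, with 95% Poisson intervals of the count. DDIT4 stands at 1709, 2473 and 234 CPM, whereas ATF4 stands at 444, 683 and 671 CPM.

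Among the bZIP transcription factors, ATF4 had 444 CPM in 4sU 60 min (2729 counts) and 683 CPM in 4sU 30 min (6593 counts), against 671 CPM in input (22004 counts). The 30 min library and the input were thus close, with a ratio of 1.02 (0.989 to 1.05), and the 60 min library was 1.51-fold below the input (1.45 to 1.58). With mitochondrial counts in the total the 30 min ratio was 0.749. With median-of-ratios scaling it was 0.788 and with TMM 0.794, so its direction depended on the scaling, and at 60 min it was 0.492, past the limit of 2-fold, with mitochondrial counts in the total. Counted as distinct positions, ATF4 turned to the other side of the input at 60 min, with a ratio of 1.53.

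DDIT3, which encodes CHOP, a bZIP factor known for its part in cell death under lasting ER stress, had 96.4 CPM in 4sU 60 min (593 counts) and 107 CPM in 4sU 30 min (1037 counts), against 28.6 CPM in input (937 counts). It was 3.37-fold above the input at 60 min (3.04 to 3.74) and 3.76-fold above it at 30 min (3.44 to 4.11). In the gene table DDIT3 overlaps MARS1 on the opposite strand and LOC128125814 on its own strand; counts of LOC128125814 cannot be told apart from those of DDIT3. On the opposite strand of the DDIT3 window there were 98.3 CPM in 4sU 60 min and 124 CPM in 4sU 30 min, against 145 CPM in input, so the level there was highest in input.

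XBP1, the bZIP factor that raises genes of ER folding and degradation, had 909 CPM in 4sU 60 min (5591 counts) and 1635 CPM in 4sU 30 min (15783 counts), against 378 CPM in input (12382 counts). The ratio to input was 2.41 at 60 min (2.33 to 2.48) and 4.33 at 30 min (4.23 to 4.43). With mitochondrial counts in the total the 60 min ratio was 1.79, under the limit of 2-fold.

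DDIT4, also called REDD1, encodes an inhibitor of the growth kinase complex mTORC1. It had 1709 CPM in 4sU 60 min (10516 counts) and 2473 CPM in 4sU 30 min (23869 counts), against 234 CPM in input (7677 counts). At 30 min it was 10.6-fold above the input (10.3 to 10.8), and at 60 min 7.30-fold (7.08 to 7.52).

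The remaining genes act in feedback. PPP1R15A encodes GADD34, the inducible subunit that brings protein phosphatase 1 to phosphorylated eIF2; it was the least abundant of the 6 in every library, with 27.5 CPM in 4sU 60 min (169 counts) and 68.8 CPM in 4sU 30 min (664 counts), against 6.56 CPM in input (215 counts). Its ratio to input was 10.5 at 30 min (8.98 to 12.3), with an interval that overlapped that of DDIT4, and 4.19 at 60 min (3.40 to 5.15). TRIB3, a pseudokinase that binds AKT and ATF4, had 69.4 CPM in 4sU 60 min (427 counts) and 139 CPM in 4sU 30 min (1343 counts), against 25.5 CPM in input (835 counts). It was 5.46-fold above the input at 30 min (5.005 to 5.96) and 2.72-fold at 60 min (2.42 to 3.06).

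Taking a ratio of at least 2-fold with an interval that excludes 1 as a call, 5 of the 6 genes were called higher in 4sU 30 min than in input, where 35.3% of the 10843 sites were called higher and 17.1% lower. The same 5 were called higher at 60 min (4 with mitochondrial counts in the total, without XBP1), where 27.3% of sites were called higher and 21.8% lower. Counted as distinct positions in place of reads, DDIT3 and PPP1R15A alone stayed called at both times, with 30 min ratios of 2.01 and 3.31, and the 30 min ratio was 1.77 for DDIT4, 1.84 for XBP1 and 1.76 for TRIB3, under the limit of 2-fold. Such positions were few, 66 for DDIT4 over the libraries against 23869 counts at 30 min, so this measure follows level only in part. No share over all sites was made for it. The median log2 ratio of the 6 genes was 2.28 at 30 min and 1.60 at 60 min, beside 0.37 and 0.06 for all sites. The genes were chosen with earlier results of these data known, so this contrast describes them and is no test. At 30 min DDIT4 lay above 93.9% of sites, PPP1R15A above 93.8%, TRIB3 above 87.3%, XBP1 above 83.6%, DDIT3 above 80.5% and ATF4 above 41.4%. These ranks, and the shares and medians of all sites above, set the sum over a gene's window beside single sites, so the measures are not fully alike. The 30 and 60 min ratios share the input library, so the 60 min ratios are no separate check. The 4sU libraries also skipped an initial poly(A) selection, which the sources do not state for the input, so that step and the capture cannot be told apart.

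**Figure D2:**
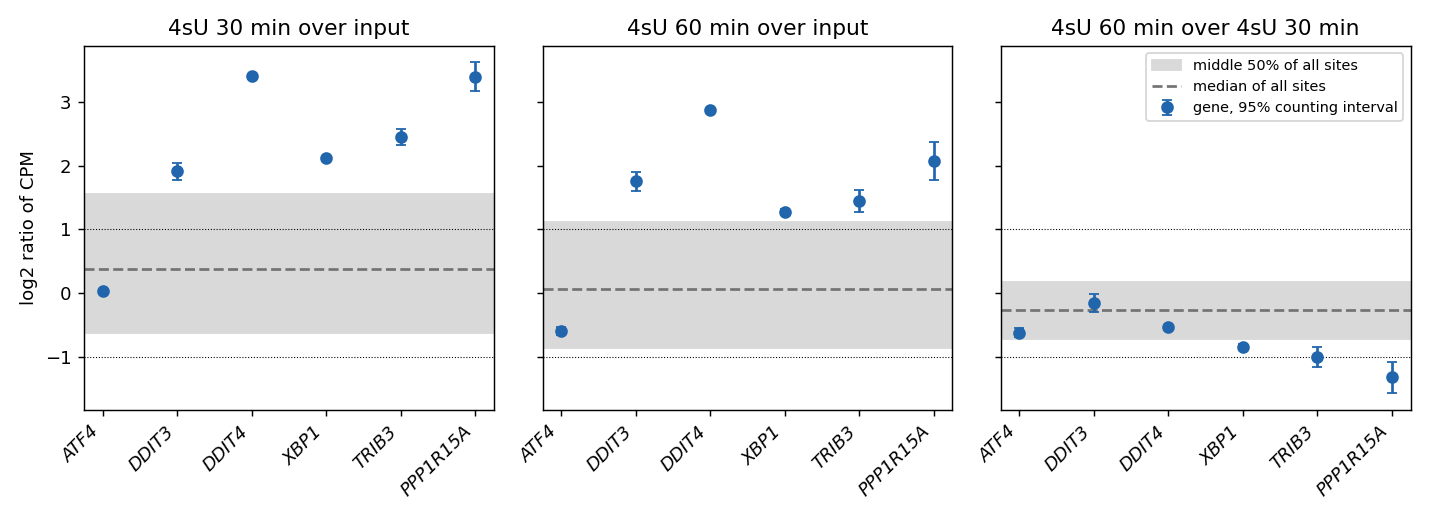
Log2 ratio of CPM of each gene for the 3 pairs of libraries, with 95% counting intervals. The grey band holds the middle 50% of all tested sites, the dashed line is their median, and dotted lines mark 2-fold. Against input, 5 genes lie above the band at both times and ATF4 lies inside it.

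Set against ATF4 within the same library, a comparison that no scaling can move, DDIT4 had 385 counts per 100 of ATF4 at 60 min (369 to 402) and 362 at 30 min (352 to 372), against an input value of 34.9 (33.99 to 35.8). XBP1 had 205 per 100 in 4sU 60 min and 239 in 4sU 30 min, against 56.3 in input. PPP1R15A had 6.19 per 100 at 60 min and 10.1 at 30 min, against an input value of 0.977 (0.850 to 1.12). DDIT3 had 21.7 per 100 at 60 min (19.8 to 23.8) and 15.7 at 30 min (14.7 to 16.8), against 4.26 in input. It was thus higher per ATF4 count at 60 than at 30 min, whereas the intervals of DDIT4 at these times overlapped.

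The order of levels was DDIT4, XBP1, ATF4, DDIT3, TRIB3, PPP1R15A in 4sU 60 min. In 4sU 30 min TRIB3 stood above DDIT3 by 1.30-fold (1.19 to 1.41), whereas in input DDIT3 stood above TRIB3 by 1.12-fold (1.02 to 1.23), the smallest step between neighbours in any library. All steps between neighbours had counting intervals that excluded 1, which says nothing of the variation between cultures or of capture differences between genes. The highest gene exceeded the lowest 62.2-fold in 4sU 60 min, 35.9-fold in 4sU 30 min and 102-fold in input.

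All 6 genes had a lower CPM in 4sU 60 min than in 4sU 30 min, and TRIB3 and PPP1R15A were called lower. PPP1R15A was 2.50-fold lower at 60 min (2.11 to 2.98) and TRIB3 2.00-fold lower (1.80 to 2.24), just past the limit of 2. XBP1 was 1.80-fold lower, ATF4 1.54-fold, DDIT4 1.45-fold and DDIT3 1.11-fold (1.01 to 1.24), and these were not called. Of all sites, 14.0% were called lower and 4.58% higher, and their median log2 ratio was -0.27. That median was 0.03 with median-of-ratios scaling, so the genes are also given relative to it. Less the median of all sites, the log2 ratio of 60 to 30 min was -1.06 for PPP1R15A, -0.74 for TRIB3, -0.58 for XBP1, -0.36 for ATF4, -0.27 for DDIT4 and 0.11 for DDIT3. TRIB3 was no longer called with mitochondrial counts in the total, with median-of-ratios scaling or with TMM. PPP1R15A was called under these scalings, but not by distinct positions, where its ratio of 60 to 30 min was 0.844 and that of TRIB3 1.004, and where ATF4 (1.28) and DDIT3 (1.24) were on the higher side at 60 min.

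The genes differed in how far they ended outside their highest site, and in DDIT3 and PPP1R15A such ends took a larger share at 60 min. DDIT3 had 138 of 593 counts there at 60 min, or 23.3% (20.0 to 26.8), and 90 of 1037 at 30 min, or 8.68% (7.11 to 10.5). In input it had 5 of 937, or 0.534% (0.228 to 1.24). PPP1R15A had 29 of 169 at 60 min, or 17.2% (12.2 to 23.6), and 44 of 664 at 30 min, or 6.63% (4.97 to 8.78). In input it had 4 of 215, or 1.86% (0.726 to 4.69), so that in both genes the 60 min library was highest. For these genes the highest site lost at least 10 percentage points of the gene's counts between input and 60 min and between 30 and 60 min, with Newcombe intervals that excluded 0; no gene did so between input and 30 min. Over the stretch from 4000 nt upstream to 500 nt downstream of the highest site, the same 2 genes met this rule at 60 min, where 8.60% of 9231 loci met it against input and 3.99% of 9237 loci against 30 min. At 30 min 7.46% of loci met it against input, and 0 of the 6 genes did.

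**Figure D3:**
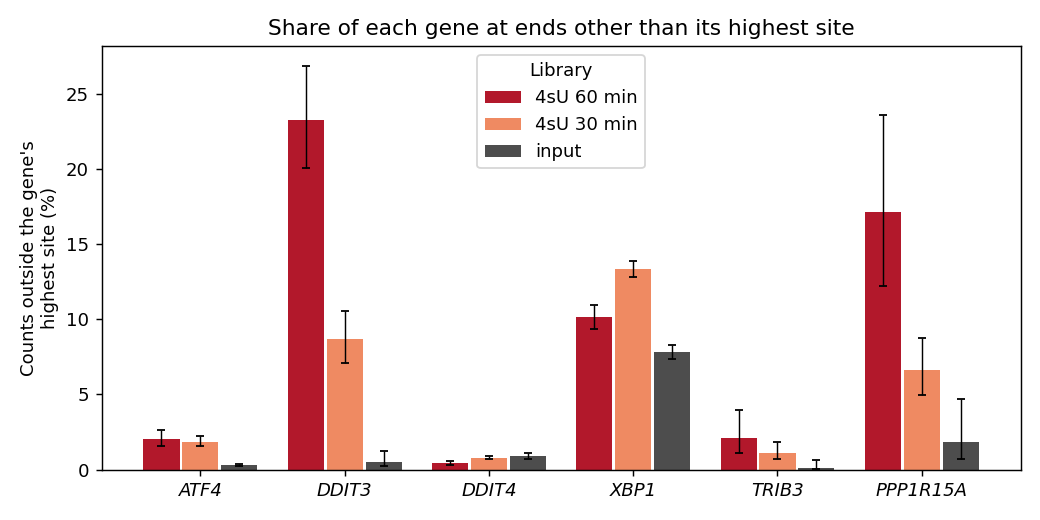
Percentage of each gene's counts that lay outside its highest site, by library, with Wilson 95% intervals. In DDIT3 the bars reach 23.3%, 8.68% and 0.534%, and in PPP1R15A 17.2%, 6.63% and 1.86%, for 4sU 60 min, 4sU 30 min and input.

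In DDIT3 most of these counts lay at 1 site 2106 nt upstream of the highest, at position 57912483, with 98 counts in 4sU 60 min and 49 in 4sU 30 min, against 0 in input. Put against a floor of 3 counts in the input library, it was 174-fold higher at 60 min and 55.5-fold higher at 30 min. The counting intervals, which use the input count of 0, began at 139 and 43.4. This upstream site was 3.14-fold higher at 60 than at 30 min (2.21 to 4.52), while the highest site was 1.33-fold lower at 60 min. Of its counts, 97.3% lay at 1 nucleotide, against 39.0% at the highest site of DDIT3. A second site of this kind, 1194 nt upstream at position 57911571, had 18 counts in 4sU 60 min and 8 in 4sU 30 min, against 0 in input, with 96.2% at 1 nucleotide. Without the upstream ends, DDIT3 was 2.60-fold above the input at 60 min (2.32 to 2.91) and 3.45-fold at 30 min (3.15 to 3.78). Internal priming at A-rich stretches within the RNA was not tested, as no sequence of hg19 was used here.

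In PPP1R15A no other end held most of these counts at 60 min. Its largest upstream site, 2359 nt from the highest, had 12 counts in 4sU 60 min and 12 in 4sU 30 min, against 0 in input, or 7.10%, 1.81% and 0% of the gene. Taking 3 counts of the gene's 215 as the limit that an input count of 0 allows, its share there could be up to 1.40%, and the Wilson interval reached 1.76%. At the highest site alone, PPP1R15A was 3.53-fold above the input at 60 min (2.83 to 4.40) and 9.98-fold at 30 min (8.52 to 11.7). That site was 2.82-fold lower at 60 than at 30 min (2.35 to 3.42). The largest upstream site had a ratio of 60 to 30 min of 1.57 (0.645 to 3.82), an interval that held 1. The larger share outside the highest site thus went with a lower highest site, unlike in DDIT3, where the main upstream site was called higher.

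XBP1 had 11 of the 23 sites and the only sites besides the highest ones that passed the CPM filter. The highest held 89.9% of counts in 4sU 60 min and 86.7% in 4sU 30 min, against 92.2% in input. The others that passed lay 95, 502 and 557 nt upstream. The site 95 nt upstream had 29.9 CPM in 4sU 60 min and 86.0 CPM in 4sU 30 min, against 11.2 CPM in input. It was 7.66-fold above the input at 30 min (6.76 to 8.68), beyond the 4.07-fold of the highest site (3.97 to 4.17), and 2.66-fold at 60 min (2.22 to 3.19). The site 557 nt upstream followed it, with ratios to input of 3.06 at 60 min and 7.01 at 30 min. The site 502 nt upstream had 2.07 and 5.68. In input the sites 557 and 502 nt upstream had 7.69 and 6.90 CPM, against 53.9 and 39.2 CPM in 4sU 30 min. They passed the filter on mean CPM through the 4sU libraries, so their high ratios to input are partly fixed by that choice. The ratio of 60 to 30 min at these upstream sites was 0.35, 0.37 and 0.44 in the order 95, 502 and 557 nt, all called lower, whereas the highest site had a ratio of 0.58.

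ATF4 had a minor site 196 nt upstream of its highest, with 40 counts in 4sU 60 min and 114 in 4sU 30 min, against 44 in input. This site was 4.84-fold above the input at 60 min (3.08 to 7.60) and 8.80-fold at 30 min (6.16 to 12.8). The highest site of ATF4 was level at 30 min when scaled by nuclear counts, with a ratio of 1.001. The minor site held 1.47% of the gene in 4sU 60 min and 1.73% in 4sU 30 min, against 0.200% in input. DDIT4 ended almost wholly at its highest site, with 99.6% of counts in 4sU 60 min and 99.2% in 4sU 30 min, against 99.1% in input. In TRIB3 that share was 97.9% in 4sU 60 min and 98.9% in 4sU 30 min, against 99.9% in input.

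Within the highest sites, cleavage kept to the same nucleotides in the 3 libraries with shifts of a few points. ATF4 ended mainly at 2 nucleotides 5 nt apart. The upstream one held 56.8% of the site in 4sU 60 min and 52.5% in 4sU 30 min, against 61.5% in input, a difference between 30 min and input of -8.98 points (-10.4 to -7.60). The downstream one held 22.7% in 4sU 60 min and 26.2% in 4sU 30 min, against 22.9% in input. DDIT4 also had 2 leading nucleotides 5 nt apart, the downstream one with 35.96% in 4sU 60 min and 33.8% in 4sU 30 min, against 36.4% in input, and the upstream one with 25.8% and 27.8%, against 29.3%. In TRIB3 the nucleotide 4 nt upstream of the leading one held 18.2% in 4sU 60 min and 18.3% in 4sU 30 min, against 13.9% in input. DDIT3, XBP1 and PPP1R15A had a leading nucleotide and a neighbour 1 nt downstream of it.

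**Figure D4:**
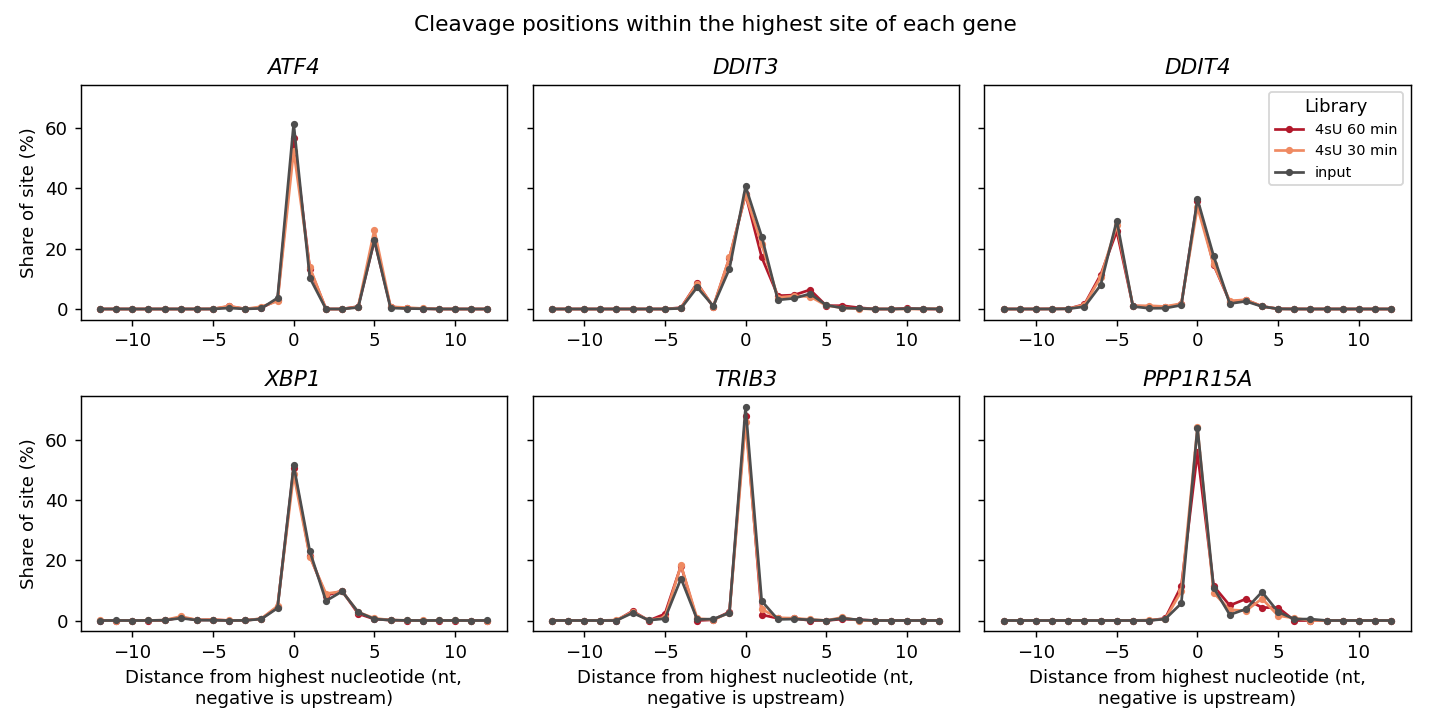
Share of the counts of each gene's highest site at each nucleotide, by distance from the leading nucleotide along the RNA, for the 3 libraries. ATF4 and DDIT4 have 2 peaks 5 nt apart and TRIB3 has 2 peaks 4 nt apart in every library.

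The other genes of these pathways were examined as a list of 28, grouped by role, with windows around the gene in hg19 numbering that were entered by hand. The chromosome was that of the gene table for all 28 and the strand for 26, and EIF2AK1 and SLC7A11 had no strand there. The highest site lay within 500 nt of the downstream window end in 22. In 4sU 30 min 12 of the 28 were called higher than in input and 0 lower, beside the 35.3% and 17.1% of all sites. Nothing is read from the share called higher, which is close to that of all sites, nor from the counts called within a role given below. At 60 min 10 were called higher and 2 lower, beside 27.3% and 21.8% of sites, and between 60 and 30 min 0 were called higher and 5 lower, beside 4.58% and 14.0% of sites. The median log2 ratio of the list was 0.83 at 30 min and 0.28 at 60 min against input, below the 2.28 and 1.60 of the 6 genes. Both sets were chosen with earlier results of these data known, so nothing is read from this difference.

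Of 5 stress sensors, EIF2AK3 (PERK) and ERN1 (IRE1) were called higher at both times, beside 35.3% of all sites at 30 min and 27.3% at 60 min. ERN1 was the highest of the class at 30 min, with 15.6 CPM in 4sU 60 min and 28.7 CPM in 4sU 30 min, against 5.43 CPM in input, a 30 min ratio of 5.28 (4.36 to 6.41). EIF2AK1, the heme-regulated eIF2 kinase, was the lowest at 0.61 (0.56 to 0.66). Of the eIF2 pair, PPP1R15B, the constitutive counterpart of PPP1R15A, had a 30 min ratio of 7.03 (6.40 to 7.72), and EIF2S1, the eIF2 alpha subunit, one of 0.74 (0.69 to 0.79). PPP1R15B was also called lower at 60 than at 30 min, at 0.41 (0.36 to 0.46), near the 0.40 of PPP1R15A (0.34 to 0.47).

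Of 4 other bZIP factors, CEBPB, ATF3 and ATF5 were called higher at 30 min, beside 35.3% of all sites. CEBPB led with a ratio of 6.76 (6.31 to 7.25), and CEBPG, a partner of ATF4, was the lowest at 1.81 (1.69 to 1.94). At its highest site alone CEBPG had a log2 ratio of 1.004 and was called higher, so its call depended on which ends were counted. Of 7 genes of amino acid supply and redox balance, CHAC1, SESN2 and SLC3A2 were called higher at both times. The shares of all sites called higher were 35.3% at 30 min and 27.3% at 60 min. CHAC1, which degrades glutathione, had 1004 CPM in 4sU 60 min and 1018 CPM in 4sU 30 min, against 77.5 CPM in input, or 12.95- and 13.1-fold, more than any of the 6 genes. MTHFD2, a mitochondrial folate enzyme, was the lowest of the class at 30 min with 1.25 (1.19 to 1.31). ASNS, asparagine synthetase, had a ratio of 1.58 over its window but a log2 ratio of -1.13 at its highest site, so its direction depended on which ends were counted.

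Of 10 genes of ER folding and degradation, DNAJB9, HERPUD1 and EDEM1 were called higher at 30 min and 7 were not called. Among all sites 35.3% were called higher at that time. DNAJB9, an ER co-chaperone, led with 79.5 CPM in 4sU 60 min and 149 CPM in 4sU 30 min, against 16.2 CPM in input, a 30 min ratio of 9.23 (8.35 to 10.2). SDF2L1 was the lowest, at 0.58 at 30 min (0.55 to 0.63), and was called lower at 60 min at 0.36 (0.33 to 0.40). By the pair of log2 ratios to input at 30 and 60 min, which share the input, the genes of the list nearest to ATF4 were EIF2AK4, SEL1L and PDIA4, at distances of 0.12, 0.18 and 0.25. Those nearest to DDIT3 were EIF2AK3, ERN1 and ATF3, at 0.43, 0.54 and 0.56. EIF2AK4 had 56 counts at 60 min over its window. At its highest site its log2 ratios to input were -0.28 at 30 min and -1.50 at 60 min, against 0.11 and -0.51 over the window. Its place beside ATF4 thus depended on which ends were counted.

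**Figure D5:**
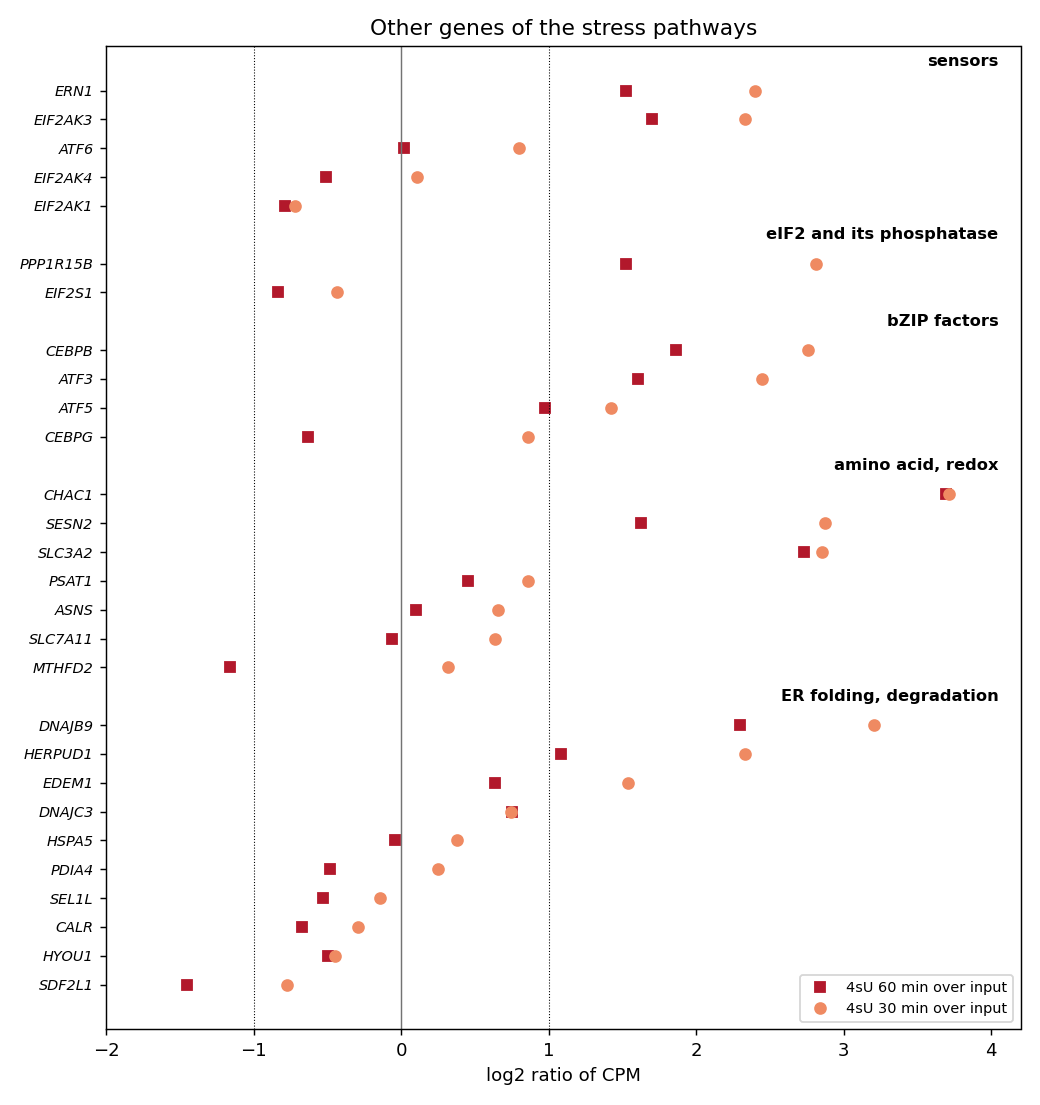
Log2 ratio of CPM to input for 28 other genes of the stress pathways by role, at 60 min (squares) and 30 min (circles) of labelling, 1 library each. Dotted lines mark 2-fold. CHAC1 lies furthest right at both times, and SDF2L1 furthest left.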

How the data were processed

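Each library came as 1 deposited table of read counts per stranded position, not normalized by the authors, as whole numbers with different totals show. Per the labels' protocols, 2P-seq primes from the poly(A) tail with an anchored oligo(dT). The submitters' processing notes list cutadapt and Bowtie. Versions, build and the handling of multiply mapping reads are not stated there.

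Counts on a gene's strand were summed over its window, and positions within 24 nt of a local maximum formed sites. Ratios of CPM carry exact 95% Clopper-Pearson intervals for a pair of Poisson counts, shares carry Wilson and differences of shares Newcombe intervals. Against a library with 0 counts, 3 counts in that library served as the floor. A call needed 2-fold and an interval that excluded 1; a shift needed 10 points. Pathway genes needed at least 20 counts in a library. Named pathway genes were the highest and lowest 30 min ratio of each role and the 3 nearest to ATF4 and to DDIT3; genes called in a role, PPP1R15B between labelling times and ASNS were named after their values were seen. The 6 genes and the lists were chosen with earlier results of these data known, and the motifs after the promoter sequences had been seen. Python 3.11.15, scipy 1.17.1 and edgeR 4.0.16 (TMM factors only, over 10843 sites) were used, and the code of the calls was run on simulated counts. These were Poisson counts, as the intervals assume, with changes well past 2-fold. They cannot show the effect of amplified copies, of variation between cultures or of ratios near the limit. Alternatives were other scalings, merging distances, filters, windows and limits, the highest site alone, and the number of distinct positions.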

Additional observations from a re-analysis of the deposited data

Results flagged for a closer look

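Counts on the strand opposite to XBP1, which the comparisons above leave out, exceeded the input within the XBP1 window in both 4sU libraries. There were 2.276 CPM in 4sU 60 min (14 counts), against 0.2136 CPM in input (7 counts), a ratio of 10.65 with a counting interval from 4.02 to 31.2. In 4sU 30 min there were 0.8288 CPM (8 counts), a ratio of 3.88 to the input (1.23 to 12.6). On its own strand XBP1 had 5591 and 15783 counts in these libraries. The cause was not tested.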

How the results depend on the processing

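With 1 library per group, nothing here measures variation between cultures, and depth limits the minor ends most, where counts are few. The 5 genes called higher than input stayed called at 30 min under the other scalings, with the highest site alone and with wider windows. The same held at 60 min except for XBP1 (1.79) with mitochondrial counts in the total. A fold limit of 1.5 keeps every call made at 2-fold by its rule, so it is no check of these calls. Counting distinct positions in place of reads left 2 called higher (DDIT3 and PPP1R15A) at 30 min and 2 at 60 min. The cause was not tested. Positions are few beside reads, so this count follows level only in part. Against input at 60 min, 1 gene (ATF4) was called lower with mitochondrial counts in the total, and 1 at a limit of 1.5. Between 60 and 30 min, 1 gene was called lower with mitochondrial counts in the total, 1 with median of ratios and 1 with TMM, 4 at a limit of 1.5 and 0 by distinct positions, where the TRIB3 ratio turned to 1.004; the cause was not tested. For the pathway list at 30 min, 2 genes were called lower with mitochondrial counts in the total, 2 with median of ratios, 2 with TMM, 2 at a limit of 1.5 and 1 by the highest site; distinct positions left 1 called higher. At 60 min against input, 6 were called lower with mitochondrial counts, 6 by the highest site, 6 at a limit of 1.5 and 0 by distinct positions, which left 1 called higher. Between 60 and 30 min, 2 were called lower with median of ratios, 3 with TMM, 8 by the highest site, 16 at a limit of 1.5 and 0 by distinct positions. The window of HYOU1 ended at its highest site; widening the pathway windows by 500 nt, chosen after seeing the data, changed no count of calls. The counts of shifted ends were the same under all merging distances and share limits tried. The background shares stayed within 1.5 times under all filters and merging distances tried. No share over all sites was made under the other scalings, at a limit of 1.5 or by distinct positions. The counts called there have no such share beside them, and the shares of the main setting do not apply to them. The median log2 ratio of all sites at 30 min against input was 0.37 with nuclear counts and -0.07 with mitochondrial counts in the total. No paired analysis was possible because each group has 1 library.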
